A study of Arabidopsis thaliana with 3 samples.

Results

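The germin tandem cluster of chromosome 5 comprises 7 germin-like genes (AT5G39110, AT5G39120, AT5G39130, AT5G39150, AT5G39160, AT5G39180 and AT5G39190) and 2 annotated pseudogenes (AT5G39155 and AT5G39185). Its HDA6-GFP regions were taken as those overlapping a member gene or the 1 kb on either side of it by at least 1 bp. They numbered 12 of the 7547 regions in the deposited ChIP list, of which 7477 are nuclear and 1609 lie on chromosome 5. The members were chosen by measured values, the presence and width of these ChIP regions, so their counts, widths and ranks are given as descriptions and were not tested. Of the 12 regions, 11 lie in the 40-kb window that starts at 15660001, and the remaining one, at AT5G39110, lies just below it.

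The regions come from chromatin immunoprecipitation followed by sequencing (ChIP-seq) of 14-day-old Arabidopsis thaliana seedlings. There were 2 HDA6-GFP ChIP samples and 1 input sample, and all were of the Col-0 ecotype and expressed the construct HDA6pro::HDA6:GFP, that is, HDA6 joined to green fluorescent protein under its own promoter, in plants grown in long days at 22°C. DNA of at least 5 immunoprecipitations with an anti-GFP antibody was pooled for a ChIP library, and the labels list that antibody for the input too. No sample without the transgene was used here, and the labels do not say whether the plants also kept the endogenous HDA6. The 2 deposited lists, ChIP regions and input intervals, give positions on the TAIR10 build and no height, count or p-value. As the replicates are not kept apart in them, the values that follow have no replicate error. Read depth is also unknown.

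HDA6 is a histone deacetylase of the RPD3 class, an enzyme that removes acetyl groups from histone tails and is known for the silencing of transposons, repeats and ribosomal RNA genes. Germins and germin-like proteins are secreted glycoproteins of the cupin superfamily, which is named for its barrel-shaped fold, and are found in the cell wall and apoplast. Cereal germin is an oxalate oxidase that binds manganese, whereas germin-like proteins differ in the activities reported for them. Germin-like genes commonly lie in tandem arrays, in which neighbouring copies have arisen by duplication.

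All 9 members carried an HDA6-GFP region inside the gene body, 1 each. Under the same rule for body or flank, 8.56% of nuclear protein-coding genes (2348 of 27444) and 52.5% of nuclear annotated pseudogenes had a region. With the body alone the shares were 5.80% of protein-coding genes and 41.8% of annotated pseudogenes. In the chromosome arms, taken as all sequence more than 3 Mb from a centromere midpoint, 7.04% of protein-coding genes and 22.8% of annotated pseudogenes had one in the body or flank. Since the cluster was chosen for its regions, the share of 9 in 9 is not set against these backgrounds.

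**Figure D1:**
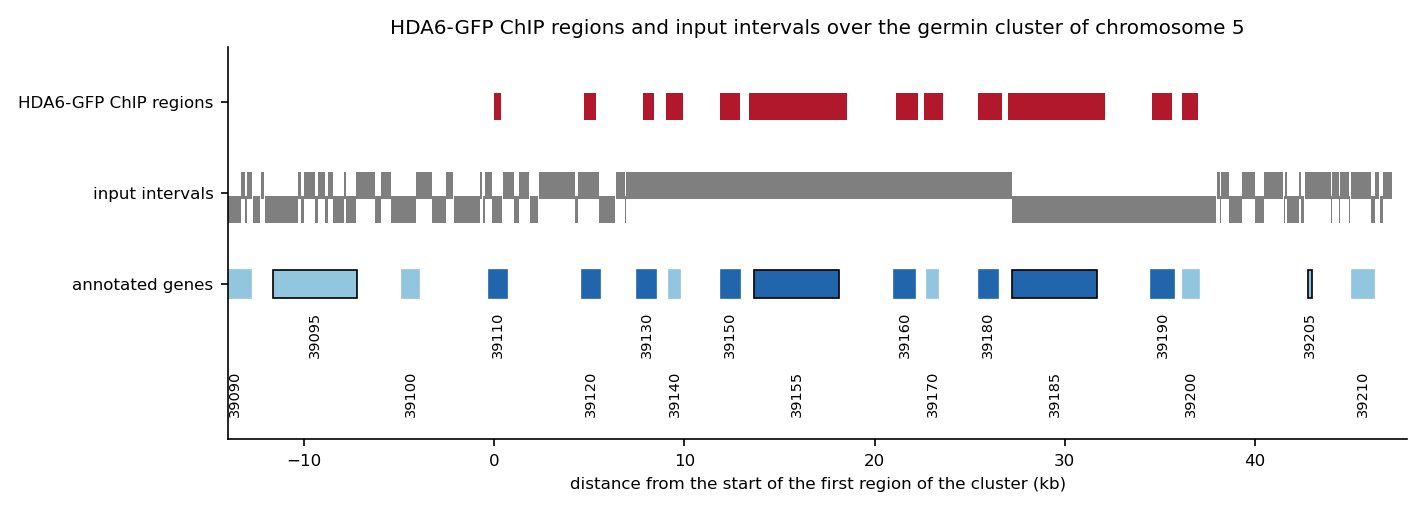
Map of the germin cluster, with distance from the start of its first HDA6-GFP region in kb on the horizontal axis. The 12 ChIP regions (red) stand above the input intervals (grey, drawn at alternating heights so that neighbours can be told apart) and the annotated genes (members in dark blue, other genes in light blue, pseudogenes outlined in black, labels without the prefix AT5G). The ChIP regions sit on genes, and 2 input intervals, of 20251 and 10749 bp, span the part from AT5G39130 to AT5G39200.

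The germin-like genes differed in how much of the body lay in a region. AT5G39110, the first of the members by position, had a region of 349 bp on chromosome 5 at 15657993 to 15658341, which covered 37.3% of its 936 bp. AT5G39120 had a region of 645 bp at 15662707 to 15663351, which covered 68.2% of its 946 bp. AT5G39130 had a region of 570 bp at 15665794 to 15666363, which covered 58.7% of its 971 bp. In these 3 genes the region lay wholly inside the annotated gene and reached neither end of it.

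The other germin-like genes were covered over most or all of their length. The region at AT5G39150, 1078 bp at 15669857 to 15670934, held 100% of the 1007-bp gene and ran 41 bp past its low-coordinate end and 30 bp past its high-coordinate end. The region at AT5G39180, 1231 bp at 15683448 to 15684678, likewise held 100% of its 1008-bp gene and ran 207 bp past the high-coordinate end. The region at AT5G39160, 1178 bp at 15679098 to 15680275, covered 91.8% of the gene. GER2 (AT5G39190), also known as GLP2A and the one member that the RefSeq gene table names as a germin-like protein, had a region of 1016 bp at 15692601 to 15693616, which covered 85.1% of its 1194 bp. Over the 7 germin-like genes the covered share of the body had a median of 85.1% and ran from 37.3% to 100%. In the arms, 1137 protein-coding genes (4.69%) held a region within the body. These had a median of 13.4% and an upper quartile of 24.5%, and every germin-like member stood above that quartile. The members were chosen for their regions and measure 936 to 1194 bp, and arm genes of like length were not set apart for comparison. Of the 3 other listed germin-like genes with a region, AT5G38930 (27.3%) and AT5G38940 (41.3%) also stood above the quartile. AT3G04180 (24.4%) did not.

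The 2 pseudogene members lay entirely inside the 2 widest ChIP regions of the chromosome 5 arms. AT5G39155, annotated over 4493 bp, was covered by a region of 5122 bp at 15671403 to 15676524. AT5G39185, annotated over 4478 bp, was covered by a region of 5066 bp at 15685033 to 15690098. At AT5G39155 the region reached 234 bp past the low-coordinate end and 395 bp past the high-coordinate end, and at AT5G39185 it reached 195 bp and 393 bp past them. Of 1165 arm annotated pseudogenes, 13 (1.12%) had at least 95% of the body in regions, and these 2 are among them. Among the 176 arm annotated pseudogenes of at least 4 kb, 77 had a region in the body, with a median covered share of 9.74%, and 5 reached 95%, these 2 included. The annotation used here does not say what kind of gene either pseudogene derives from.

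**Figure D2:**
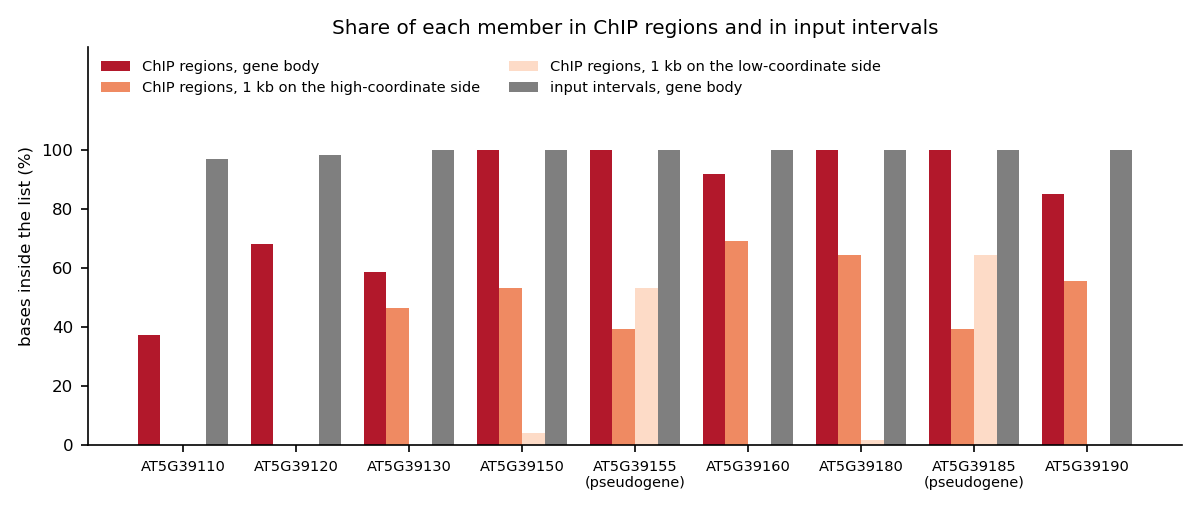
Share of bases (vertical axis, %) of each of the 9 members that lay in ChIP regions, for the gene body (dark red) and for 1 kb on its high-coordinate (orange) and low-coordinate side (pale), and in input intervals for the body (grey). Body shares in ChIP regions run from 37.3% at AT5G39110 to 100% at 4 members. The flanks of the germin-like genes are covered mainly on the high-coordinate side (mostly by the region of the next gene). Those of the pseudogenes are covered more on the low-coordinate side (mostly by the region of the gene before). Input intervals covered at least 97.1% of each body.

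Flanking sequence of the germin-like genes was covered mainly on the high-coordinate side, and most of those bases lay in the region of the next gene. On the low-coordinate side, the 1 kb next to a germin-like gene was covered for 4.10% at AT5G39150, 1.60% at AT5G39180 and 0% at the other germin-like members. On the high-coordinate side it was covered for 46.4% at AT5G39130, 53.2% at AT5G39150, 69.3% at AT5G39160, 64.6% at AT5G39180 and 55.5% at GER2, and for 0% at AT5G39110 and AT5G39120. At AT5G39130 and GER2 the region of the gene itself stopped short of the high-coordinate end, so all of these high-side bases belonged to the region of the next gene. At AT5G39150, AT5G39160 and AT5G39180 the gene's own region reached 30, 134 and 207 bp into that side, and the rest belonged to the next region. The 2 pseudogene members had more coverage on the low-coordinate side, with 53.2% there and 39.5% on the high-coordinate side at AT5G39155, and 64.6% and 39.3% at AT5G39185. Their own regions reached less far on the low side (234 and 195 bp) than on the high side (395 and 393 bp). The rest of the low-side bases belonged to the regions of AT5G39150 and AT5G39180, and the high-side bases were all their own. The gene table gives no strand, so the sides cannot be read here as promoter or gene end. Taken over all 9 members, regions held 90.4% of the gene bodies and 56.4% of the bodies and flanks together (17833 of 31632 bp).

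Among and just beyond the germin-like genes lie 3 short protein-coding loci that the member list does not hold, AT5G39140 and AT5G39170 between members and AT5G39200 after the last one. Each had a region as well. AT5G39140, of 589 bp, and AT5G39170, of 595 bp, were covered in full by regions of 928 bp (15667009 to 15667936) and 999 bp (15680583 to 15681581). AT5G39200, of 805 bp, was covered for 93.9% by a region of 813 bp at 15694181 to 15694993, which counts with the cluster because it starts 445 bp beyond GER2. The 12 regions therefore fell on 12 neighbouring annotated genes in an unbroken row, 1 region to a gene, and 87.1% of their bases lay inside an annotated gene. Regions were taken for lying in a member or within 1 kb of it, so that share is partly set by the choice. The same share for all arm regions is not given here. The gene table gives these 3 loci no description.

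The row was long for the chromosome arms. Neighbouring arm genes with a region in the body formed 1165 rows, of which 1006 held 1 gene and 10 held 4 or more. The row of 12 from AT5G39110 to AT5G39200 came next after a row of 25 genes from AT2G01008 to AT2G01080 at the start of chromosome 2. The next rows held 7 genes (AT4G00005 to AT4G00060) and 5 genes (AT4G27140 to AT4G27180). Counting protein-coding genes alone, a choice made after the results were seen, the germin row held 10 genes and was the longest, with 9 in the row at the start of chromosome 2. Of the 17 arm protein-coding genes (0.0701%) with at least 95% of the body in regions, 4 were AT5G39140, AT5G39150, AT5G39170 and AT5G39180, and 5 lay in the first 100 kb of chromosome 2.

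Gaps between ChIP regions were longer at the 2 ends of the cluster than inside it. The members were chosen for their regions, so where the cluster ends follows in part from that choice. The nearest region before it lay 57188 bp away and the nearest after it 23643 bp away, whereas gaps inside the cluster ran from 307 to 4365 bp with a median of 1866 bp. The median gap between arm regions was 27860 bp, longer than the gap after the cluster and shorter than the gap before it. The germin-like gene GLP6 (AT5G39100), next in the array on the low-coordinate side, had no region in its body or flanks and lay 3964 bp from the nearest one. AT5G39095, a pseudogene of 4434 bp beyond GLP6 and close in length to the 2 pseudogene members, also had none, with the nearest 7208 bp away. On the other side AT5G39205, an annotated pseudogene of 207 bp, lay 5776 bp from the nearest region. Within 100 kb of the cluster, 5 of 35 genes on the low-coordinate side and 1 of 39 on the high-coordinate side had a region in the body, and regions held 1.74% and 0.458% of those stretches.

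**Figure D3:**
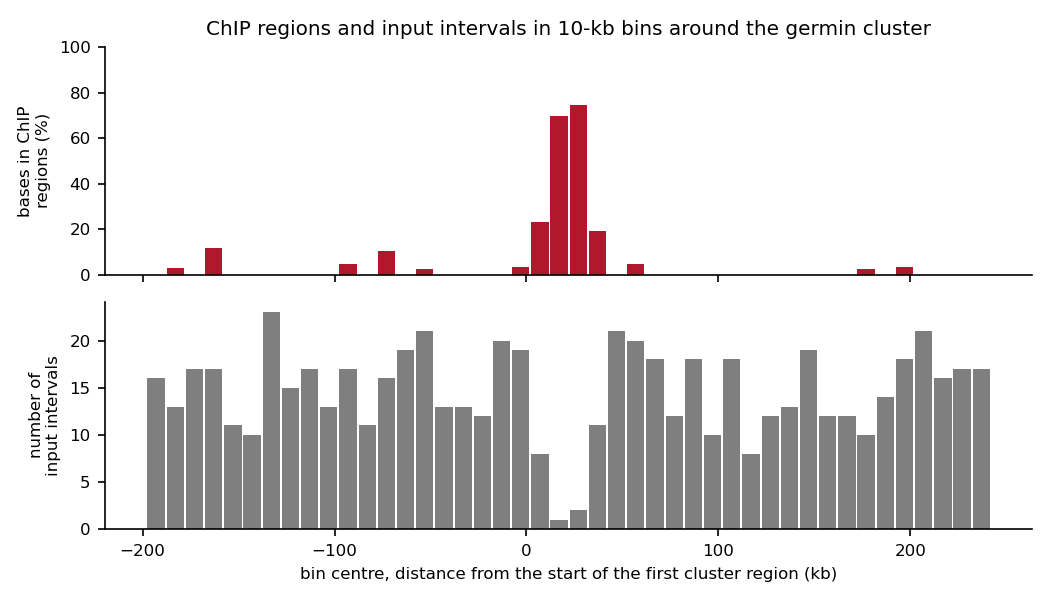
Bases in ChIP regions (upper panel, %) and number of input intervals (lower panel) in 10-kb bins, plotted by the distance of the bin centre from the start of the first cluster region in kb. The 4 bins of the cluster hold 22.9%, 69.6%, 74.7% and 19.3% of their bases in ChIP regions, and the 2 central ones hold 1 and 2 input intervals.

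Coverage by regions peaked in the centre of the cluster. In 4 bins of 10 kb starting at 15660001, regions held 22.9%, 69.6%, 74.7% and 19.3% of the bases. Across the 40 kb this came to 46.6%, and over the chromosome arms as a whole regions held 0.691%. The window was chosen for its regions, so the difference between these shares is partly set by that choice and was not tested. Of 8911 arm bins, 85.3% held no region and 11 were covered by more than 40%. The 2 central bins of the cluster ranked 8 and 7 among all arm bins. Another 7 of those 11 bins formed the first 70 kb of chromosome 2, 1 held most of the region at the HDA6 gene itself, and 1 lay on chromosome 3 from 5280001 to 5290000.

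The regions of the cluster were wide for the arms. Their median width was 1007.5 bp, with a range of 349 to 5122 bp, and the 1634 arm regions had a median of 297.5 bp. Each of the 12 was wider than that median. The regions at AT5G39155 and AT5G39185 ranked 5 and 6 among the arm regions, between the 4 widest, at the start of chromosome 2, and the 4577-bp region over HDA6 (AT5G63110), whose DNA the transgene also carries. Those at AT5G39180, AT5G39160, AT5G39150 and GER2 ranked 21, 22, 27 and 29, and the narrowest, at AT5G39110, ranked 468. Regions of at least 1000 bp made up 1.90% of arm regions (31), and 6 of these 31 lay in the cluster. On the arms of chromosome 5 alone there were 7 such regions, the 6 of the cluster and that of HDA6. The cluster held 0.734% of the arm regions and 3.09% of the bases in them. In the whole nuclear genome, where wide pericentromeric regions join the ranking, the 2 widest cluster regions ranked 31 and 32 of 7477.

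**Figure D4:**
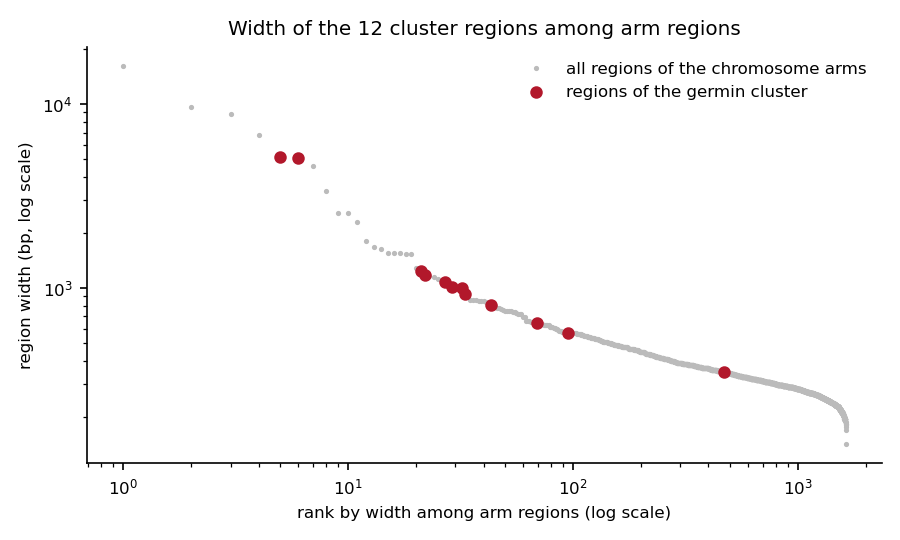
Width of each arm region (vertical axis, bp, log scale) against its rank by width (horizontal axis, log scale), with all 1634 arm regions in grey and the 12 cluster regions in red. The cluster regions at AT5G39155 and AT5G39185 hold ranks 5 and 6, and the region at AT5G39110, at rank 468, is the narrowest of the cluster.

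Gene order repeats along the cluster, and the regions repeated with it. A germin-like gene, a short protein-coding locus, a second germin-like gene and a long pseudogene follow each other from AT5G39130 to AT5G39155 and again from AT5G39160 to AT5G39185, and the first pair of that order recurs as GER2 and AT5G39200. This pairing of genes by order was made after the regions had been seen. Between the 6 counterpart pairs, gene starts lay 13503 to 13591 bp apart, region starts 13304 to 13630 bp apart and region ends 13341 to 13912 bp apart. As each region lay on its gene, region spacings near those of the genes follow in part from that. The lengths of paired genes were close for AT5G39150 and AT5G39180 (1007 and 1008 bp), for AT5G39140 and AT5G39170 (589 and 595 bp) and for AT5G39155 and AT5G39185 (4493 and 4478 bp). They were less alike for AT5G39130 and AT5G39160 (971 and 1137 bp), for AT5G39160 and GER2 (1137 and 1194 bp) and for AT5G39170 and AT5G39200 (595 and 805 bp).

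The widths of paired regions were closest at the pseudogenes, where they differed by 56 bp in more than 5 kb. At AT5G39170 the region was 71 bp wider than at AT5G39140, and at AT5G39180 it was 153 bp wider than at AT5G39150. At GER2 the region was 162 bp narrower than at AT5G39160, and at AT5G39200 it was 186 bp narrower than at AT5G39170. The largest difference was between AT5G39160 and AT5G39130, whose regions measured 1178 and 570 bp. At that pair the offset of the region start also departed furthest from that of the gene start, by 199 bp, against 16 to 91 bp in the other pairs. Reads from near-identical copies can be placed on either copy, and how such reads were treated is not recorded in the labels or the files. The sequences of the copies were not compared, and the share of reads with more than 1 match is unknown, so regions at paired genes may not be independent observations.

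**Figure D5:**
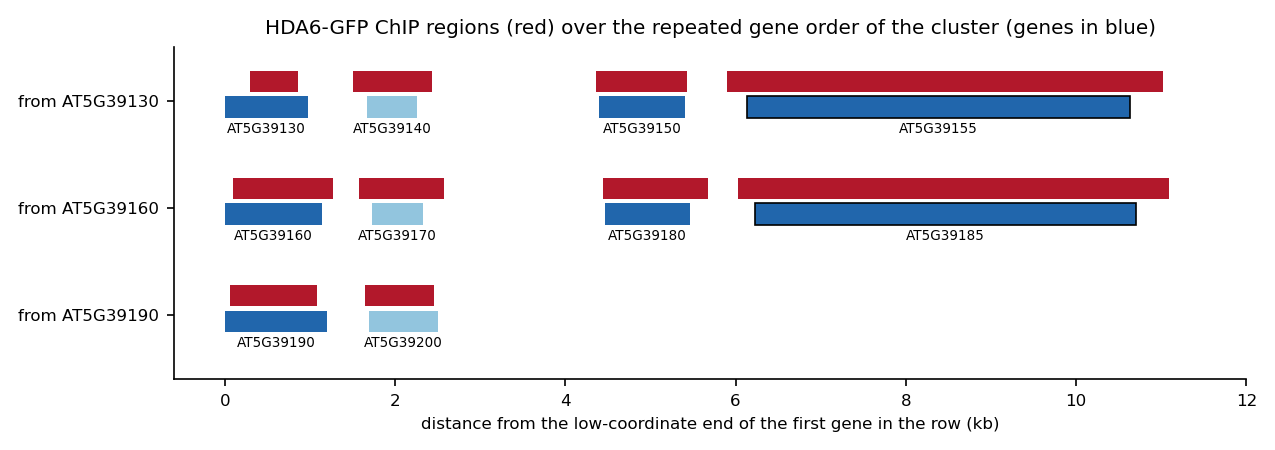
ChIP regions (red) above the genes they overlap (members in dark blue, short loci in light blue, pseudogenes outlined in black) for the 3 stretches of repeated gene order, each drawn from the low-coordinate end of its first gene, in kb. Each region lies on its gene, so regions recur at like positions in each stretch. The widest, of 5122 and 5066 bp, lie over the pseudogenes of the upper 2 stretches.

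Input intervals changed in width at the same place. ChIP regions held 56.4% of the member bodies and flanks, and input intervals held 99.5%. Such a high input share was not particular to the cluster. At each of the 25 other listed germin-like genes, input intervals held at least 94.2% of the body and 95.2% of the flanks. At the cluster 16 input intervals met a member or its flank. The one from 15664942 to 15685192, of 20251 bp, was the widest of 123694 arm input intervals, and the one from 15685214 to 15695962, of 10749 bp, was the second widest. Among all 169984 nuclear input intervals they ranked 6 and 15. The pair was separated by 21 bp, which fell inside the ChIP region at AT5G39185. The other input intervals at the cluster measured 60 to 1880 bp, and arm input intervals had a median of 487 bp.

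Most of the cluster's regions lay in those wide input intervals. Of the 12 ChIP regions, 10 overlapped an input interval of at least 10 kb, as did 17 of all 1634 arm regions, whose widest overlapping input interval had a median of 1374 bp. The regions at AT5G39110 and AT5G39120 lay instead in input intervals of 528 and 1126 bp, and these were the germin-like members with no covered flank. In the arms 5 input intervals reached 10 kb and all 5 held a ChIP region, but the share of their bases in ChIP regions varied. It was 55.6% and 62.5% at the cluster, 99.7% in the one at the start of chromosome 2, and 19.0% and 4.24% in a pair of intervals on chromosome 1 that begin at 8784222 and 8802334. Input intervals carry no height, so the width of an interval measures no read depth, and the part of the input in the ChIP regions of the cluster was not tested.

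Of 25 other loci listed as germin-like, 3 carried a region. The gene table names 10 other germin-like genes, GLP4, GLP5, GLP6, GLP7, GLP8, GLP9, GLP10, GL22, GER1 (AT1G72610) and GER3, and 0 of them had a region in the body or the 1-kb flanks. With 10 genes, a share of 0% has a 95% Wilson interval up to 27.8%. Under the same rule, 8.56% of all nuclear protein-coding genes had a region. The share was 7.04% in the arms, where these 10 lie. The difference between these shares was not tested. A further 15 loci were listed with them as germin-like from general knowledge, with no name in the table, and 3 of these had a region. AT5G38930 had one of 274 bp (15585542 to 15585815) and AT5G38940 one of 483 bp (15588987 to 15589469), both on chromosome 5 and less than 100 kb from the cluster. AT3G04180 had one of 231 bp on chromosome 3 at 1097707 to 1097937. Over the 25 loci the share was 12% (95% Wilson interval 4.17 to 29.96%, counting error only). The members, all with a region, are left out of both sets, so neither share is an estimate for the gene family. With the 7 germin-like members counted, 10 of 32 germin-like loci had a region. Both intervals treat each locus as separate, although some of the loci are neighbours. The regions at AT5G38930, AT5G38940 and AT3G04180 lay inside the gene body and covered 27.3%, 41.3% and 24.4% of it. They reached neither end, as at AT5G39110, AT5G39120 and AT5G39130.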

How the data were processed

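Each list deposited by the authors gives positions in bp (sequence name, start, end) and no other value. Bowtie, SICER and the TAIR10 build are named in the submitters' processing notes, and their versions, settings and the treatment of replicates and of reads with several matches are not stated there. The lists carry no replicate number and were taken as pooled over each group. Starts are printed counted from 1. Genes come from the RefSeq gene table (assembly TAIR10.1), used for names, lengths and overlaps, with no gene coordinates printed. It names GER2 as germin-like, and the other germin-like members are so called after the list of members.

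Overlaps, covered bases, widths and ranks were computed with Python 3.11.15, numpy 2.4.6 and pandas 2.3.3, and the overlap code was tested on simulated data. Centromere midpoints were set at 15, 3.6, 14, 4 and 11.7 Mb on chromosomes 1 to 5. The members and lists were chosen with earlier results of these data known. No test was run. The genes named are the members, genes within 1 kb of a cluster region, listed germin-like genes with a region, the HDA6 gene and the loci of wider arm regions. The genes bordering the cluster, the other wide input intervals, the germin genes without a region and the genes bounding other rows were added after their values were seen. Alternatives changed the flank, the overlap, the list of regions and the arm limit. Sequences of the members were not analysed here.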

Additional observations from a re-analysis of the deposited data

How the results depend on the processing

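The count of 9 members with a region was the same with the body alone, a 500-bp or 2-kb flank, an overlap of 100 bp and the widest 3749 nuclear regions (337 bp or more). The number of other listed germin-like genes with a region stayed at 3, except that it was 1 with the widest regions. Regions held 56.4% of the member bases, 90.4% with the body alone and 47.4% with a 2-kb flank. Joining regions less than 200 bp apart left 12 regions, and the 40-kb window held 11. The widest cluster region kept rank 5 in arms beginning 2 Mb from the midpoints. The cluster lies 3.96 to 3.99 Mb from its midpoint, so with a limit of 4 Mb it is pericentromeric and its widest region ranked 31 of 6159. Input intervals numbered 7 with bodies alone, against 16. In bins of 5 and 20 kb, chosen after seeing the data, the fullest bin was covered for 99.4% and 47.0%. These shifts follow from how each alternative was built. No paired analysis was possible because the lists carry no replicate number. The lists hold no depth, and the absence of a region does not show an absence of HDA6.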
